A study of Mus musculus with 6 samples.

Results

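Axon guidance genes were followed in cultured mouse adipose-derived stem cells (ADSC), stromal cells grown out of fat. The set took every protein-coding gene whose symbol belongs to the class 3 to 7 semaphorins, the plexins, the neuropilins, the A and B ephrins and Eph receptors, the Slits and Robos, the netrins, or the Unc5 receptors, which gave 68 of the 56748 genes counted. A further 3 genes with matching names were of another biotype and were left out. RNA was sequenced from 3 libraries labelled overexpressing, whose cells received vectors for 2 integrins at once, VLA-4 (Itga4 with Itgb1) plus LFA-1 (Itgal with Itgb2), and from 3 libraries labelled mock. For the mock cells the protocol names an empty vector, the genotype label is WT, and the design text calls the cells unmodified. All cultures were grown in DMEM with 5.5 mmol/L glucose and 10% fetal bovine serum. The sources used here give no age, sex or strain of the mice, no promoter for the transgenes, and nothing on whether replicates were grown separately. The p-values therefore reflect only variation among the sequenced libraries, part of which can be technical.

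Guidance proteins steer migrating cells and growing axons by attraction and repulsion, and they also act in vessel growth, in bone and in connective tissue. Semaphorins signal through plexins, and most secreted class 3 members need a neuropilin as the binding partner. Ephrins stay on the cell surface and signal to Eph receptor kinases on the neighbouring cell. Slits are large secreted ligands of Robo receptors, and netrins are laminin-like secreted proteins whose receptors include the Unc5 family.

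Library totals ran from 15723888 to 18185832 counts in the group labelled overexpressing and from 16904703 to 18381083 in the group labelled mock, and the guidance genes took 0.326% to 0.343% and 0.34% to 0.358% of them. No transduced subunit was called higher in the libraries labelled overexpressing. Itga4 and Itgb1 were called lower, against the label, while Itgb2 and Itgal had too few counts to be tested. Itga4 had 133 counts over the libraries labelled overexpressing and 335 over those labelled mock, Itgb1 118688 and 143294, Itgb2 15 and 38, and Itgal 7 in each group. No label says whether counts of these mouse genes would include reads from the transgenes; neither this nor an exchange of labels was tested. Every direction given here is therefore between libraries as labelled. All 10 mesenchymal stromal markers had counts in both groups. Together they summed to 10088 to 12026 CPM in the libraries labelled overexpressing and 22236 to 23910 CPM in those labelled mock. Col1a1 (means of 5864 and 13011 CPM) and Col1a2 (2890 and 6365 CPM) made up most of it. In the libraries labelled overexpressing 7 of the 10 were lower, Col1a1, Ly6a and Thy1 included, where 23% of all tested genes were lower. Pdgfra, Cd44 and Nt5e were not called (log2 fold changes 0.01, -0.01 and 0.43). In bulk RNA, fewer cells of a type and less RNA per cell cannot be told apart.

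Of the 68 genes, 57 had enough counts to be tested (a minimum count of 10 in the filter). At an edgeR adjusted p under 0.05, the libraries labelled overexpressing had 9 of these genes higher and 19 lower. That is 28 of 57, or 49.1%, where 45.3% of all 14502 tested genes were called, so the share of guidance genes that changed was near the background. Higher calls made up 15.8% of the tested guidance genes, against a background of 22.3%, and lower calls 33.3%, against a background of 23%. A change of 2-fold or more was called for 8 of them, 2 higher and 6 lower, where 8.32% of all tested genes had one, 3.48% higher and 4.84% lower. The median log2 fold change was -0.10 over the 57 genes and 0.01 over all tested genes. The groups did not overlap for 32 of the 57 genes, and for 53.4% of all tested genes.

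The guidance genes are long. Split by length into 4 groups of about equal size, the tested genes had 31 of the 57 in the longest group, from 6644 bases up. In that group 36.2% of all genes were higher in the libraries labelled overexpressing and 18.5% lower, with a median log2 fold change of 0.11, while 5 of the 31 guidance genes were higher and 8 lower. After a correction for gene length, 9 guidance genes were higher and 24 lower, with 3326 higher and 3168 lower among all 14502 tested genes. Scaling by library size only left 12 higher and 17 lower. Under that scaling the median over all genes was 0.12 and over the guidance genes 0.01 (log2 fold change), and 65.8% of its calls over all genes were higher, against 49.2% with the scaling used here.

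**Figure D1:**
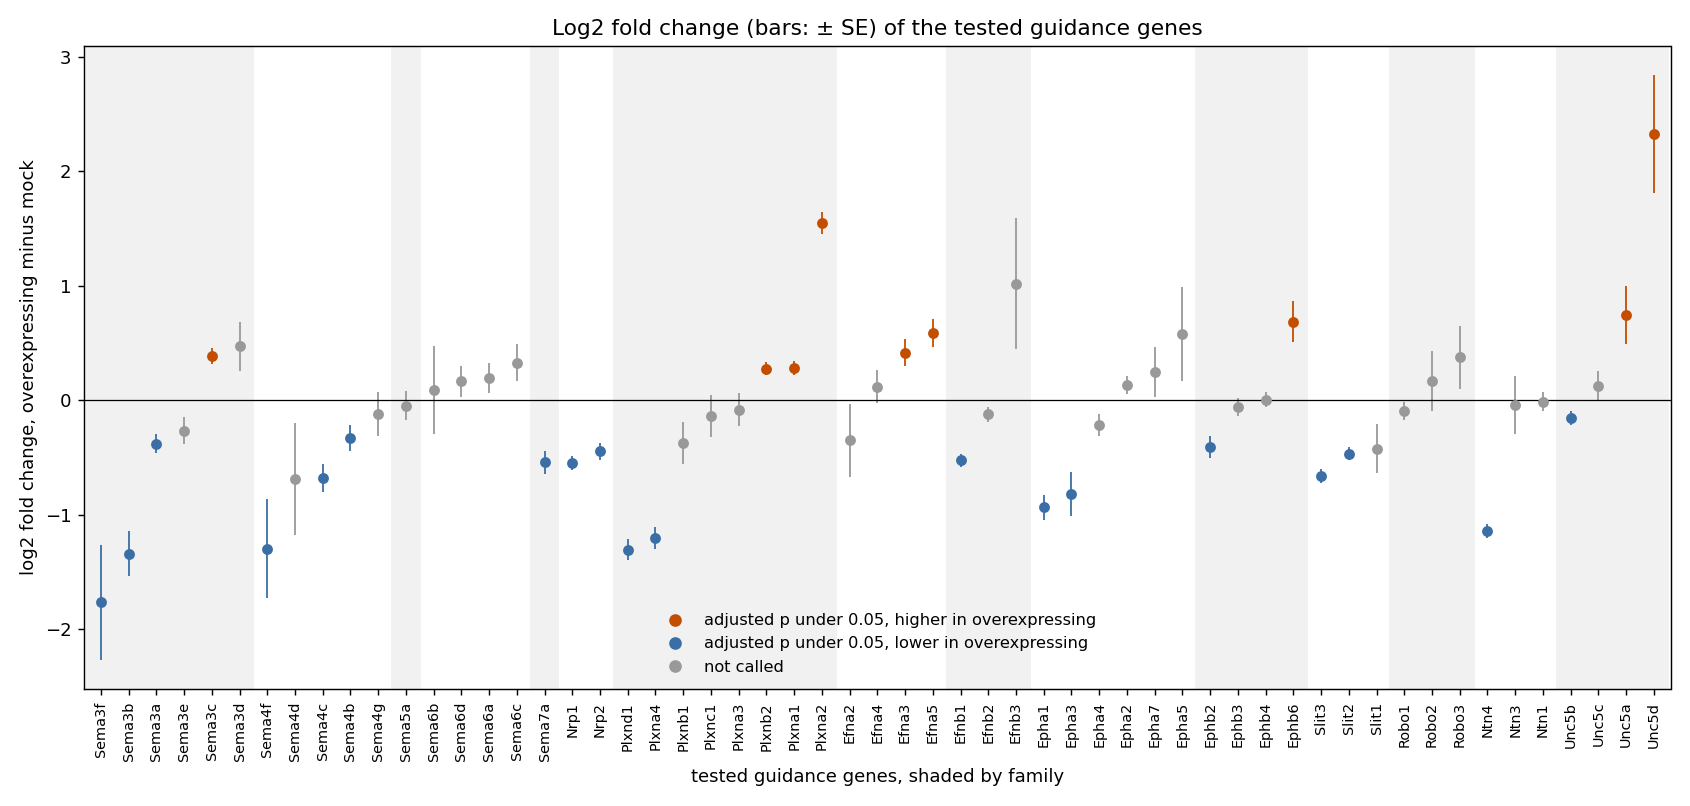
Log2 fold change of the 57 tested guidance genes, libraries labelled overexpressing minus libraries labelled mock, with bars of 1 SE, grouped by family and coloured by call. Values run from -1.77 for Sema3f to 2.32 for Unc5d, and the Slits, both neuropilins and all 5 tested class 4 semaphorins lie below 0.

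The promoters of 4 genes are shown. Plxna2 had the largest increase among the called members after Unc5d, which had few reads. Its level per gene length was low, at 3.39 FPKM in the libraries labelled overexpressing and 1.17 FPKM in those labelled mock. Plxnd1, a receptor, and the ligands Ntn4 and Slit3 were decreases. RefSeq (build GRCm38.p6) gave a promoter for 59 of the 68 genes. The lines below give the 250 bases before the transcription start, read on the strand of the gene, which lie at chr1:194619579-194619828 for Plxna2 (plus strand), chr6:115995006-115995255 for Plxnd1 (minus strand), chr10:93640799-93641048 for Ntn4 (plus strand) and chr11:35121206-35121455 for Slit3 (plus strand). Capitals mark letters that match 1 of 6 motifs on either strand.
Plxna2: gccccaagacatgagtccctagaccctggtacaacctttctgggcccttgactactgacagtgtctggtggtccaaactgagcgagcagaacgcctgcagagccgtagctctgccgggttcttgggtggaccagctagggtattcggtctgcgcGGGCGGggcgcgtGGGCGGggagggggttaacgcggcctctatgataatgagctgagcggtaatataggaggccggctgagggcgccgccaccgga
Plxnd1: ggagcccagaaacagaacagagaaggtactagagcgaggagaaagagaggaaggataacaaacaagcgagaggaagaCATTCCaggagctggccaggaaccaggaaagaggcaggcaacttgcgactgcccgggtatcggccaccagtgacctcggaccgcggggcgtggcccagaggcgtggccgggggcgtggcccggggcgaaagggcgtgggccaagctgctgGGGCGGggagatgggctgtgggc
Ntn4: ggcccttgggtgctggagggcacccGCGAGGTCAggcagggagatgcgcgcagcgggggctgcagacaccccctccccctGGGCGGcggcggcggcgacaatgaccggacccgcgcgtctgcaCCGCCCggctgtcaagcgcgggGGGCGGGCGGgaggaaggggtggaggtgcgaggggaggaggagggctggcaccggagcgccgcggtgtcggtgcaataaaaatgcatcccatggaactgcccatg
Slit3: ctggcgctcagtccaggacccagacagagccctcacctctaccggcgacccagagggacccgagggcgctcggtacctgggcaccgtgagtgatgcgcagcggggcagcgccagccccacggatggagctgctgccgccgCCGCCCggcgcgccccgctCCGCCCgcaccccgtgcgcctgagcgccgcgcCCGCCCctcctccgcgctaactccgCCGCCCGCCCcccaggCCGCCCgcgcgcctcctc
The motifs were the Sp/KLF box GGGCGG, the AP-1 site TGANTCA, the E-box CACGTG, the TEAD site GGAATG, the antioxidant element core TGACNNNGC and the interferon element core, GAAA followed after any 2 bases by GAAA. All 4 promoters held the Sp/KLF box, with 2 matches in Plxna2, 1 in Plxnd1, 4 in Ntn4 and 6 in Slit3, some of which overlap, and 32.7% of all 32851 promoter windows held it. The box is all G and C. These letters made up 62.8% of the window in Plxna2, 64.8% in Plxnd1, 73.2% in Ntn4 and 78.8% in Slit3. The only other matches were 1 TEAD site in Plxnd1, present in 12.6% of windows, and 1 antioxidant element core in Ntn4, present in 10.2%. The other motifs occurred in 6.75% (TGANTCA), 6.02% (CACGTG) and 2.98% (interferon element core) of windows and in none of the 4. The gene that was higher and the genes that were lower all held the same box, and a match describes letters only.

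Of 17 tested semaphorins, 1 was higher and 7 lower. The share called, 47.1%, was near the 45.3% of all tested genes. The semaphorin that was higher, Sema3c, a secreted ligand that signals through neuropilins and plexins, was the class 3 member of highest level. It had 89.9, 87.7 and 94.4 CPM (a TMM-scaled count, comparable between libraries) in the libraries labelled overexpressing, against 75.6, 64.7 and 67.9 CPM in those labelled mock. The groups did not overlap, and the log2 fold change was 0.39 (SE 0.0675, adjusted p = 6.55e-05). Sema3c supplied 70.1% of the summed class 3 FPKM (a level per gene length) in the libraries labelled overexpressing and 56% in those labelled mock.

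The other class 3 calls were decreases. Sema3a, the classical growth cone collapsing repellent, had 35.7, 40.9 and 38.9 CPM in the libraries labelled overexpressing, against 53.5, 51.2 and 45.5 CPM in those labelled mock, with a log2 fold change at -0.38 (SE 0.0816, adjusted p = 0.000569). Sema3b, a neuropilin ligand known as a tumour suppressor, had 4.1, 3.1 and 3.28 CPM, against 7.61, 7.49 and 11.6 CPM in the libraries labelled mock, with a log2 fold change at -1.34 (SE 0.196, adjusted p = 7.14e-06). Both genes were lower in every library labelled overexpressing, and mock replicate 3 was the highest library for Sema3b. Sema3f, which signals through neuropilin-2, was scarce, with 3, 4 and 7 counts in the libraries labelled overexpressing and 18, 16 and 13 counts in those labelled mock. Its log2 fold change was -1.77 (SE 0.502, adjusted p = 0.00617), and the counting interval of the ratio of summed counts was 0.146 to 0.532. Sema3d and Sema3e did not pass the test, with log2 fold changes of 0.47 and -0.27.

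In class 4, membrane semaphorins that mostly bind B plexins, 3 of 5 tested genes were lower and none higher. Of all tested genes 23% were lower, and a share of 5 genes is imprecise. Sema4c, a plexin-B2 ligand, had 15.9, 13.8 and 11.7 CPM in the libraries labelled overexpressing, against 21.7, 19.6 and 25.2 CPM in those labelled mock, with a log2 fold change at -0.68 (SE 0.12, adjusted p = 6.89e-05). The groups stood apart for Sema4c, and also for Sema4b and Sema4f, whose calls were less firm. Sema4b had 13.2, 13.2 and 14.6 CPM in the libraries labelled overexpressing and 17.5, 15.1 and 19.1 CPM in those labelled mock (adjusted p = 0.0198), and leaving out overexpressing replicate 1 or 2, or mock replicate 1 or 3, ended the call (adjusted p = 0.0689, 0.0549, 0.0562 and 0.102), as did scaling by library size only (adjusted p = 0.111). Sema4f had 26 counts over the libraries labelled overexpressing and 62 over those labelled mock (log2 fold change -1.30, SE 0.433, adjusted p = 0.0176), and its adjusted p was 0.0964 without overexpressing replicate 2 and 0.0674 without mock replicate 1. Sema4d and Sema4g were not called.

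Sema7a, a GPI-anchored semaphorin that binds plexin-C1 and beta-1 integrins, was the single class 7 gene. It had 15.6, 14.6 and 14.6 CPM in the libraries labelled overexpressing, against 19.6, 22.2 and 23.7 CPM in those labelled mock. The libraries did not overlap, and the log2 fold change was -0.54 (SE 0.103, adjusted p = 0.000159). Of its receptors, Plxnc1 was not called (log2 fold change -0.14, SE 0.184, adjusted p = 0.566), while Itgb1 was lower (log2 fold change -0.32, SE 0.058, adjusted p = 9.16e-05). None of the 4 class 6 genes, transmembrane ligands of A plexins, passed the test, although all 4 had log2 fold changes above 0, from 0.09 for Sema6b to 0.33 for Sema6c. Sema6c, the class 6 gene of highest FPKM, had 9.57, 7.41 and 8.28 CPM in the libraries labelled overexpressing and 7.89, 5.45 and 6.85 CPM in those labelled mock, and these ranges overlap. Sema5a had 10.6, 10 and 9.84 CPM in the libraries labelled overexpressing and 9.88, 11.1 and 10.6 CPM in those labelled mock, also with overlap (log2 fold change -0.05, SE 0.126).

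Both neuropilins, the co-receptors that bind class 3 semaphorins and VEGF, were lower, where 23% of all tested genes were lower. Nrp1 had 89.5, 87.2 and 80.5 CPM in the libraries labelled overexpressing, against 130, 125 and 122 CPM in those labelled mock, with a log2 fold change at -0.55 (SE 0.0612, adjusted p = 1.45e-07). Nrp2 had 71.6, 67.6 and 77.2 CPM, against 102, 88.4 and 105 CPM in the libraries labelled mock, with a log2 fold change at -0.45 (SE 0.0716, adjusted p = 2.12e-05). Neither gene had overlapping groups, and both kept their call and direction under all alternatives run.

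The plexins moved in both directions, with 3 of 8 tested genes higher and 2 lower. That is 62.5% of few genes, where 45.3% of all tested genes were called. Plxna2 (ENSMUSG00000026640, chromosome 1, 194300526 to 194499177, mm39), a receptor for class 3 and class 6 semaphorins, had 65.8, 58.5 and 52.2 CPM in the libraries labelled overexpressing, against 22.6, 17.8 and 20.1 CPM in those labelled mock. Every library labelled overexpressing was more than 2-fold above every library labelled mock, and the log2 fold change was 1.55 (SE 0.0979, adjusted p = 1.34e-11). Plxna4 (ENSMUSG00000029765, chromosome 6, 32121203 to 32565127), which binds the same ligand classes, went the other way, with 12.1, 12.5 and 11.9 CPM, against 25.9, 29.1 and 29.1 CPM in the libraries labelled mock (log2 fold change -1.20, SE 0.0983, adjusted p = 1.04e-09). Plxnd1 (ENSMUSG00000030123, chromosome 6, 115931772 to 115971966), the receptor that Sema3e binds without a neuropilin and a regulator of vessel patterning, had 24.9, 23.6 and 29 CPM, against 58.1, 60.5 and 73.2 CPM in the libraries labelled mock. Its groups did not overlap either (log2 fold change -1.31, SE 0.0946, adjusted p = 1.41e-10).

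Plxna1 and Plxnb2 carried most of the plexin message. Per gene length they stood at 64.8 and 72.7 FPKM in the libraries labelled overexpressing and at 53.6 and 60.4 FPKM in those labelled mock, where no other plexin exceeded 8.71 FPKM. Plxna1 had 613, 570 and 594 CPM in the libraries labelled overexpressing, against 518, 464 and 481 CPM in those labelled mock (log2 fold change 0.28, SE 0.0572, adjusted p = 0.000334). Plxnb2, the receptor of class 4 semaphorins, had 591, 536 and 574 CPM, against 483, 458 and 464 CPM in the libraries labelled mock (log2 fold change 0.28, SE 0.0557, adjusted p = 0.000315). Both increases were small, with no overlap, and held under all alternatives run. Plxna3, Plxnb1 and Plxnc1 did not pass the test, with log2 fold changes of -0.08, -0.37 and -0.14.

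**Figure D2:**
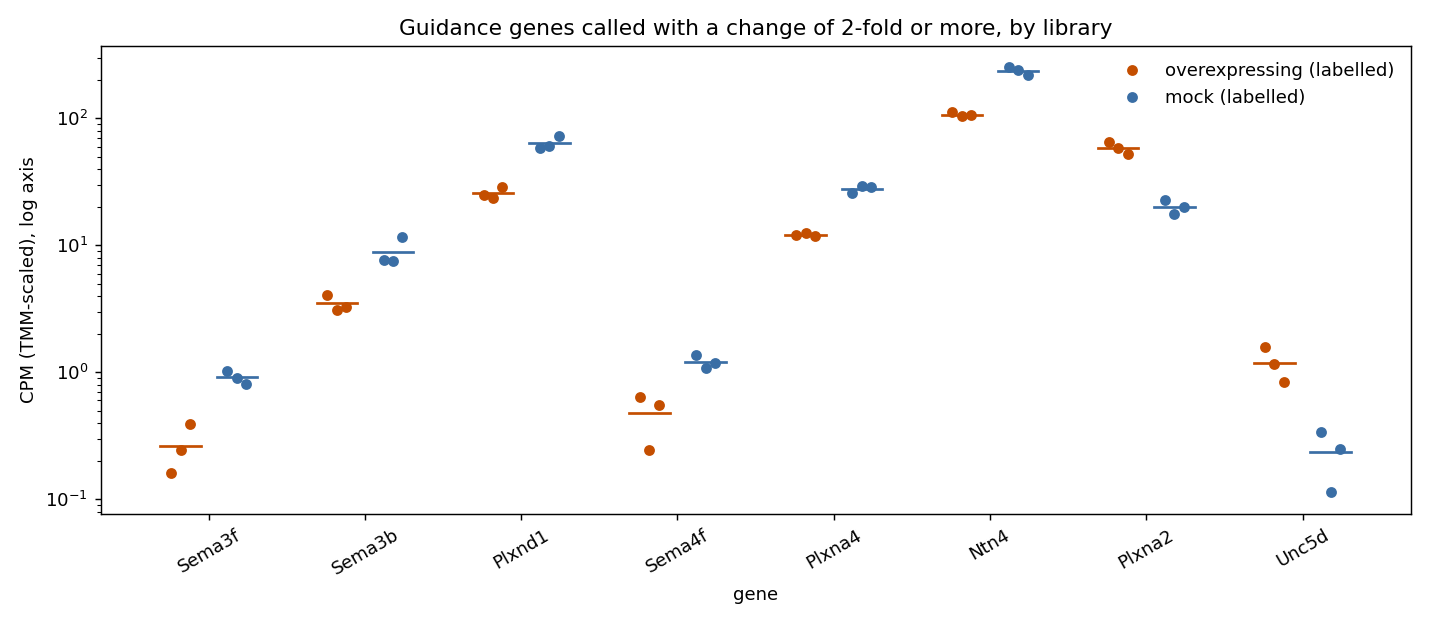
CPM (log axis) in each library of the 8 guidance genes called with a change of 2-fold or more; points are libraries and bars group means, the libraries labelled overexpressing on the left and those labelled mock on the right of each pair. Plxna2 and Unc5d are the 2 genes higher in the libraries labelled overexpressing, and no pair of groups overlaps.

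In the ephrin system 3 of 17 tested genes were higher and 4 lower, none by 2-fold. The share called, 41.2%, was near the 45.3% of all tested genes. Among the A ephrins, which are GPI-anchored, Efna5 had 14.9, 15.1 and 13.7 CPM in the libraries labelled overexpressing, against 8.63, 9.7 and 10.9 CPM in those labelled mock (log2 fold change 0.58, SE 0.124, adjusted p = 0.000495). Efna3 had 12.8, 13.8 and 14.2 CPM, against 10.7, 9.76 and 10.2 CPM in the libraries labelled mock (log2 fold change 0.41, SE 0.119, adjusted p = 0.0068). Both increases were free of overlap, while Efna4 and Efna2 were not called. Among the transmembrane B ephrins, Efnb1, the member of highest FPKM (24.8 in the libraries labelled overexpressing and 35.9 in those labelled mock), had 88.8, 87.6 and 83.2 CPM in the libraries labelled overexpressing and 124, 122 and 128 CPM in those labelled mock (log2 fold change -0.53, SE 0.0588, adjusted p = 1.53e-07). Efnb2, a marker of arterial endothelium, had 95.9, 90.5 and 101 CPM in the libraries labelled overexpressing and 104, 112 and 97.1 CPM in those labelled mock, with overlap and no call (log2 fold change -0.12, SE 0.0651, adjusted p = 0.132). Efnb3 had 34 counts over the libraries labelled overexpressing and 16 over those labelled mock and was not called (adjusted p = 0.153), but it was without mock replicate 3 (log2 fold change 1.87, adjusted p = 0.0423).

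The most abundant Eph receptors, Epha2 and Ephb4, were not called. Epha2, an EphA kinase of epithelial and stromal cells, had 71.4, 67.1 and 67.8 CPM in the libraries labelled overexpressing and 66.1, 67.9 and 54 CPM in those labelled mock (log2 fold change 0.13, SE 0.0779, adjusted p = 0.172). Ephb4, a receptor of ephrin-B2, had 64.7, 65.6 and 66.1 CPM in the libraries labelled overexpressing and 67.6, 63.6 and 64.8 CPM in those labelled mock (log2 fold change 0.003, SE 0.0645, adjusted p = 0.977). The groups overlapped for both genes, and also for Ephb3. The calls fell on receptors less abundant than Epha2 and Ephb4. Epha1 had 15.4, 17.9 and 13.6 CPM in the libraries labelled overexpressing, against 33.2, 28.7 and 27.6 CPM in those labelled mock (log2 fold change -0.94, SE 0.107, adjusted p = 2.17e-07). Its span overlaps Zyx on the other strand, with 42550 counts over the libraries labelled overexpressing and 50786 over those labelled mock, and since the strand setting is not given, reads of the pair may not be separable. Epha3 and Ephb2 were lower, with log2 fold changes of -0.82 (SE 0.188, adjusted p = 0.00107) and -0.41 (SE 0.0972, adjusted p = 0.00148). Ephb6, whose kinase domain is inactive, had 5.8, 6.31 and 6.39 CPM in the libraries labelled overexpressing, against 3.58, 3.57 and 4.38 CPM in those labelled mock, and was higher (log2 fold change 0.68, SE 0.179, adjusted p = 0.0033). Epha4, Epha5 and Epha7 were not called.

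Of the 3 Slit ligands, Slit2 and Slit3 were lower, and no Robo receptor was called. Over the 6 tested Slit and Robo genes 33.3% were called, where 45.3% of all tested genes were. Slit3, the guidance gene of highest FPKM in the libraries labelled mock, had 376, 366 and 403 CPM in the libraries labelled overexpressing, against 614, 563 and 635 CPM in those labelled mock (log2 fold change -0.66, SE 0.0593, adjusted p = 4.85e-09). Slit2, a repellent of axons and leukocytes, had 162, 162 and 171 CPM, against 228, 229 and 228 CPM in the libraries labelled mock (log2 fold change -0.47, SE 0.0542, adjusted p = 2.67e-07). Slit1, at 161 counts over the libraries labelled overexpressing and 209 over those labelled mock, did not pass the test (adjusted p = 0.11). The 3 Slits summed to 69.2 ± 3.61 FPKM in the libraries labelled overexpressing and 108.6 ± 5.55 FPKM in those labelled mock (SD, n = 3), without overlap. Robo1, the main Slit receptor here, had 37.3, 35.6 and 37.6 CPM in the libraries labelled overexpressing and 40, 37.3 and 41.2 CPM in those labelled mock, with overlap (log2 fold change -0.10, SE 0.0776, adjusted p = 0.318). Only the length correction called it, at a log2 fold change of -0.28 (adjusted p = 0.00463, or 0.00481 with the replicate block added). Robo2 and Robo3 stayed under 3 CPM in every library and were not called.

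Netrin message was dominated by Ntn4 (ENSMUSG00000020019, chromosome 10, 93476543 to 93583069, mm39), a netrin of basement membranes that binds laminin. Ntn4 had 111, 104 and 106 CPM in the libraries labelled overexpressing, against 253, 239 and 219 CPM in those labelled mock, with a log2 fold change at -1.14 (SE 0.0617, adjusted p = 7.49e-13). Every library labelled overexpressing lay below every library labelled mock, and Ntn4 supplied 81.9% and 90.8% of the summed netrin FPKM of the 2 groups. Ntn1, the canonical netrin, had 35.5, 34.2 and 39.1 CPM in the libraries labelled overexpressing and 35.7, 34.6 and 39.6 CPM in those labelled mock (log2 fold change -0.01, SE 0.0836, adjusted p = 0.907). Ntn3, whose span overlaps Tbc1d24 on the same strand, was not called. The summed netrin level was 34.6 ± 1.18 FPKM in the libraries labelled overexpressing and 69.4 ± 4.27 FPKM in those labelled mock (SD, n = 3).

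**Figure D3:**
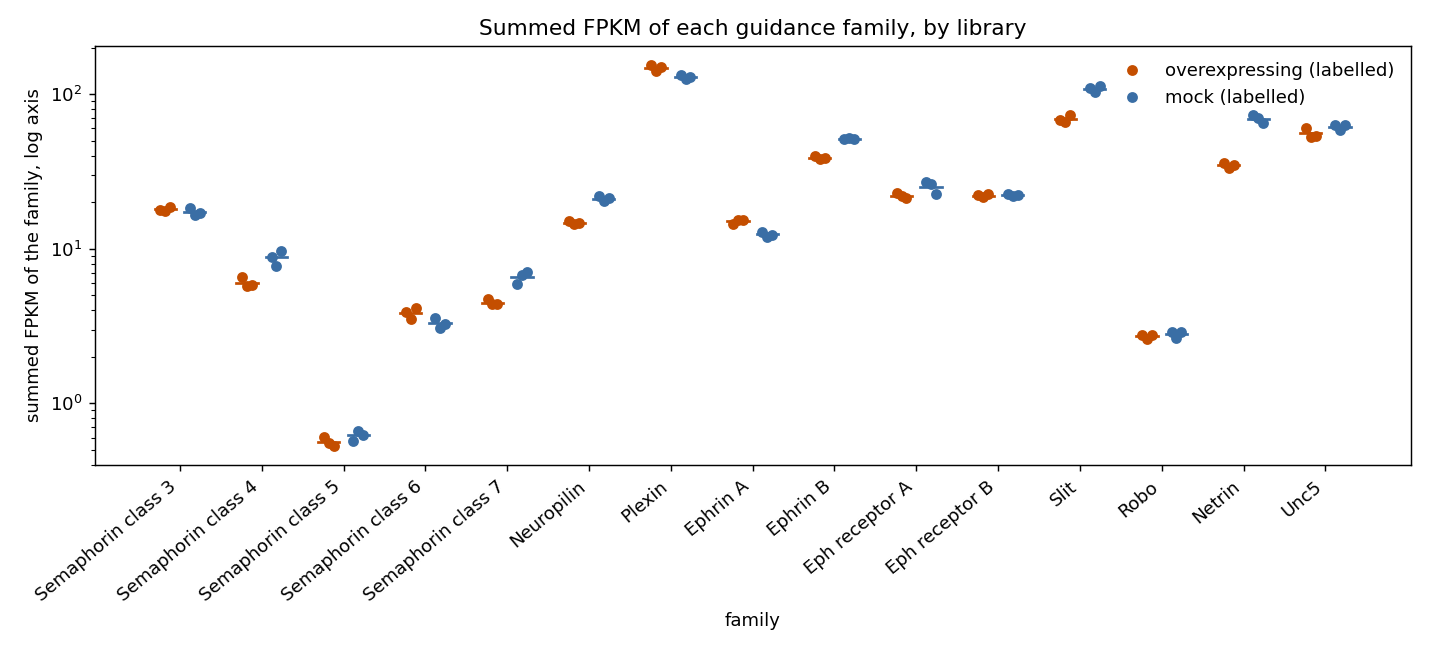
Summed FPKM (log axis) of each guidance family in each library; points are libraries and bars group means, the libraries labelled overexpressing on the left of each pair. Netrins (34.6 and 69.4 FPKM) and Slits (69.2 and 108.6 FPKM) are lower, and plexins (147.8 and 128.8 FPKM) higher, in the libraries labelled overexpressing.

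Among the Unc5 receptors, which mediate netrin repulsion and also bind FLRT proteins, Unc5b had 53.8 FPKM in the libraries labelled overexpressing and 60.3 FPKM in those labelled mock, and no other member exceeded 1.14 FPKM. Unc5b had 368, 326 and 326 CPM in the libraries labelled overexpressing and 388, 362 and 388 CPM in those labelled mock. The groups overlapped, and the call (log2 fold change -0.16, SE 0.0592, adjusted p = 0.0344) was lost with library size scaling (adjusted p = 0.544) and without overexpressing replicate 2 or 3 or mock replicate 1 or 3 (adjusted p = 0.108, 0.112, 0.116 and 0.0857). Unc5d had the largest fold of all tested guidance genes but few reads, with 30, 19 and 15 counts in the libraries labelled overexpressing and 6, 2 and 4 counts in those labelled mock (log2 fold change 2.32, SE 0.513, adjusted p = 0.000738). Its summed counts stood at a ratio of 5.15 (counting interval 2.75 to 10.5). Unc5a had 5.05, 3.4 and 5.95 CPM in the libraries labelled overexpressing and 2.44, 2.1 and 4.14 CPM in those labelled mock. These overlap, and its call (log2 fold change 0.74, SE 0.254, adjusted p = 0.0204) was lost without overexpressing replicate 1 or 3 or mock replicate 1 or 2 (adjusted p = 0.0625, 0.119, 0.0766 and 0.108). Unc5c was not called.

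**Figure D4:**
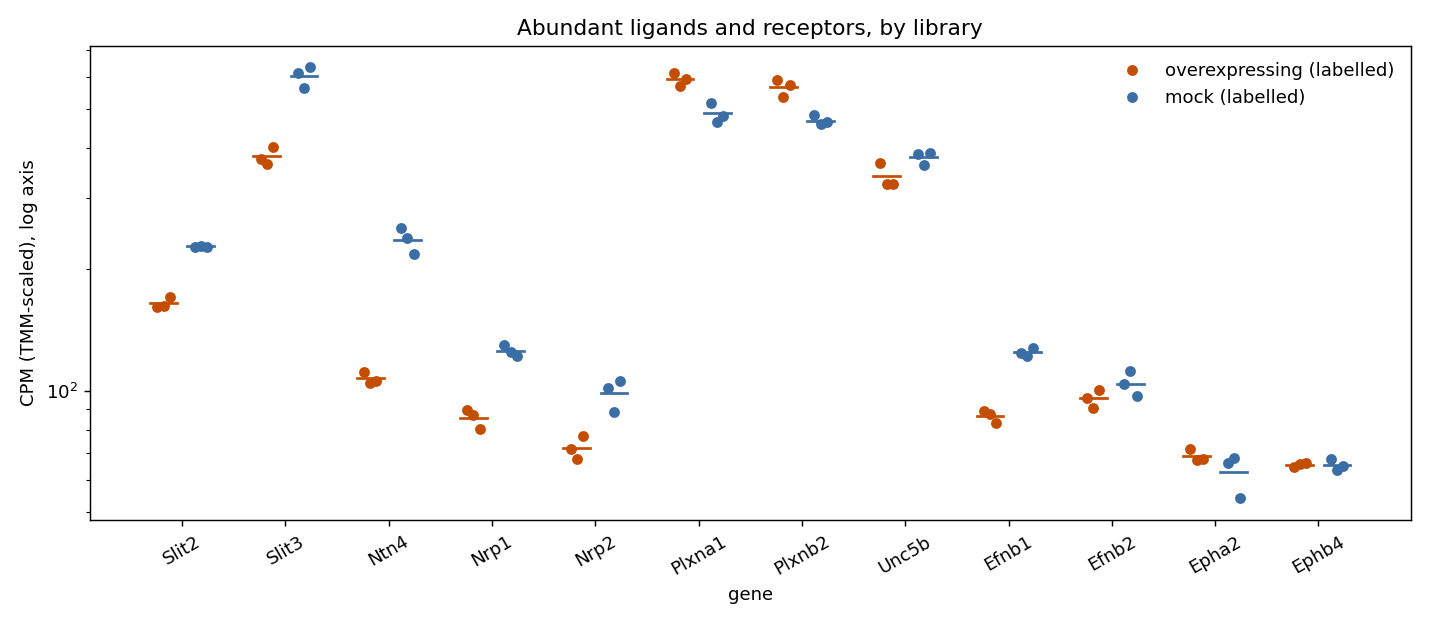
CPM (log axis) of 12 abundant guidance ligands and receptors in each library; points are libraries and bars group means, the libraries labelled overexpressing on the left of each pair. Slit2, Slit3, Ntn4, Nrp1, Nrp2 and Efnb1 lie lower, and Plxna1 and Plxnb2 higher, without overlap, while Unc5b, Efnb2, Epha2 and Ephb4 overlap.

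By role, 3 of 30 tested ligands were higher (10%) and 11 lower (36.7%), and 6 of 27 tested receptors were higher (22.2%) and 8 lower (29.6%), where 22.3% of all tested genes were higher and 23% lower. The difference between ligands and receptors was not tested.

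The 11 genes under the filter had at most 38 counts over the 6 libraries. They were Efna1, Epha6, Epha8, Epha10, Ephb1, Ntn5, Plxnb3, Robo4, Sema3g, Sema4a and Sema5b. Plxnb3 had 6 counts over the libraries labelled overexpressing and 32 over those labelled mock, which is a ratio of 0.181 (interval 0.0619 to 0.439). Sema5b had 9 and 22 counts, a ratio of 0.395 (0.16 to 0.893). Intervals cover counting error only, at 95% confidence. Epha6 and Epha10 had no count in the libraries labelled overexpressing, and Epha8 and Ntn5 none in those labelled mock, where 3 counts in a library correspond to 0.16 to 0.185 CPM.

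Of 82 other listed genes of these pathways, co-receptors, further cues, proteases and intracellular effectors, 71 were tested. The list was chosen with earlier results of these data known, and its shares were not tested against the background. In the libraries labelled overexpressing 30 were higher (42.3%) and 19 lower (26.8%), with a median log2 fold change of 0.12, where 22.3% of all tested genes were higher and 23% lower. The median length of the listed genes was 6846 bases, and among all tested genes from 6644 bases up 36.2% were higher and 18.5% lower. After the length correction 26 were higher and 19 lower. The 5 higher genes of smallest p were Abl2 and Limk1, kinases that act on actin, Srgap1, an intracellular partner of Robo receptors, the adhesion receptor Nrcam and Lgr4. Abl2 averaged 168 CPM in the libraries labelled overexpressing and 90.3 CPM in those labelled mock, Limk1 99.2 and 54.2 CPM, Srgap1 67.2 and 36.5 CPM, Nrcam 34.9 and 12 CPM, and Lgr4 119.7 and 73.8 CPM. Their log2 fold changes were 0.90, 0.87, 0.88, 1.54 and 0.70. The 5 lower genes of smallest p were Enah, an actin regulator downstream of Robo, Dpysl3, a collapsin response mediator, Rnd3, Mical1, a plexin effector that oxidises actin, and the kinase Fyn. Enah averaged 176.6 CPM in the libraries labelled overexpressing and 333.7 CPM in those labelled mock, and the log2 fold changes of the 5 were -0.92, -0.57, -0.55, -0.72 and -0.41. The other tested collapsin response mediators of the list, Dpysl2, Dpysl4 and Crmp1, were higher (log2 fold changes 0.76, 0.72 and 1.21), and Dpysl5 was not tested.

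Markers of Schwann cells, peripheral glia that express several guidance genes, moved with the groups. Their 10 markers summed to 5.11 to 5.5 CPM in the libraries labelled overexpressing and 29.3 to 35.5 CPM in those labelled mock. Of the 6 tested, 5 were lower, where 23% of all tested genes were lower. Cdh19 and Foxd3 were at 0 in the libraries labelled overexpressing, with 134 and 57 counts in those labelled mock, while S100b had 203 and 193 counts. The 8 endothelial markers summed to 22.1 to 22.9 CPM in the libraries labelled overexpressing and 16.1 to 19.5 CPM in those labelled mock. The higher sum came from Tek (825 and 311 counts, means of 15.5 and 6.02 CPM). The other 3 tested had log2 fold changes below 0, with Pecam1 called lower (10 and 67 counts) and Cdh5 and Kdr not called. Of the untested markers, Emcn had 12 and 74 counts, Tie1 3 and 26, Erg 4 and 12, and Vwf 21 and 22. The 6 neuronal markers summed to 34.8 to 39.9 CPM in the libraries labelled overexpressing and 97.4 to 102 CPM in those labelled mock. Nearly all of that sum was Tubb3, which was lower (means of 32.5 and 98.3 CPM). Stmn2 was higher (212 and 71 counts). The untested Snap25 had 15 and 1 counts, Elavl4 12 and 4, and Syt1 19 and 10, while Rbfox3 had 1 count in each group. The 8 pericyte and smooth muscle markers summed to 4323 to 4609 CPM in the libraries labelled overexpressing and 6760 to 7430 CPM in those labelled mock. Most of that sum was Acta2 (means of 4258 and 6871 CPM). Of the 6 tested, 4 were lower, while Cspg4 (3175 and 1368 counts, log2 fold change 1.16) and Notch3 (2945 and 2390 counts, log2 fold change 0.25) were higher. The shares over all tested genes were 23% lower and 22.3% higher. The 8 macrophage markers summed to 14.6 to 16.7 CPM in the libraries labelled overexpressing and 18.9 to 22.8 CPM in those labelled mock. Csf1r was most of this sum (means of 8.42 and 13.1 CPM), while Cd68 had 209 and 161 counts. The 6 mesothelial markers summed to 29.8 to 32.8 and 39.6 to 44.9 CPM. Nearly all of it was Krt19 (means of 30.4 and 41 CPM), while Msln had 31 and 12 counts. The 6 adipocyte markers summed to 7.13 to 7.84 and 11.2 to 13.2 CPM, nearly all of it Fabp4 (means of 7.39 and 12 CPM). Adipoq had 3 and 0 counts and Plin1 5 and 2. The 6 lymphocyte markers summed to at most 0.111 and 0.17 CPM. The part of these cells in the guidance gene results was not tested.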

How the data were processed

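Gene counts of 6 RNA sequencing libraries were analysed, 3 labelled overexpressing and 3 labelled mock, grouped by their titles. The submitters' processing notes list featureCounts 1.5.0-p3, StringTie 1.3.3b, HISAT2 2.0.5, fastp and the mm39 build without saying what each did. Annotation release, strand setting and filters: not given in the sources used here. Deposited files hold unnormalized counts for each gene, and FPKM values whose library scale is set by them. FPKM served for levels between genes and for family sums and shares. These were set side by side for the groups without a test. The authors also deposited a size-factor-scaled mean signal per group, log2 fold changes and p-values; of their calls, 8 guidance genes were higher and 18 lower, and 25 were shared with the calls made here.

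The counts went into edgeR's quasi-likelihood test (version 4.0.16, R version 4.3.3) on 14502 genes that passed filterByExpr with a minimum count of 10, with TMM scaling, the group as the only term, and Benjamini-Hochberg adjustment over all tested genes at 0.05. SEs were derived from the fold change and the F statistic (fold change on the log2 scale over root F). CPM used TMM-scaled library sizes. The procedure was tested on simulated data in which few genes changed, equally up and down, with no trend by gene length. Those settings differ from these data, so that test does not cover broad change or a length trend. Libraries of a group differed by more than sampling noise (chi-square over its degrees of freedom, 3.55 to 7.47), so none was treated as a library deposited more than once, which does not show that they were grown separately. Alternatives were RLE factors, library size only, no filter, a minimum count of 30, DESeq2 (version 1.42.0), the replicate number as a block, a loess length trend (span 0.3), the last pair together, and leaving out each library. Members and lists were chosen with earlier results of these data known. Named with full values were members called with a change of 2-fold or more and the member of highest FPKM per family, then the remaining calls; of the pathway list, the 5 higher and 5 lower of smallest p. Promoter sequences came from RefSeq (GRCm38.p6) and were not placed on mm39.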

Additional observations from a re-analysis of the deposited data

How the results depend on the processing

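Of the 28 called guidance genes, 24 kept their direction and their call under each of 14 alternatives that tested them (a minimum count of 30 left Sema3f, Sema4f and Unc5d untested), and the 4 that did not were Sema4b, Sema4f, Unc5a and Unc5b. Counts of guidance genes ran from 8 to 12 higher and 16 to 24 lower over the alternatives, and without single libraries from 8 to 10 higher and 16 to 21 lower. Without single libraries the pathway list had 26 to 29 higher and 16 to 19 lower, and all genes 2785 to 3118 higher and 2912 to 3243 lower. The 2 scalings and the length correction moved no called guidance gene to the other direction. The replicate numbers did not pair the libraries: the correlation of same-numbered deviations was 0.0103, 0.0164 and 0.00337. With the replicate block 9 guidance genes were higher and 19 lower, and 3183 of all genes were higher and 3297 lower.

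Directions that reversed were all in genes without a call in either fit, and the cause was not tested. Scaled by library size only, log2 fold changes turned to 0.0525 in Ephb3, 0.0974 in Ntn1, 0.067 in Ntn3, 0.0277 in Plxna3, 0.0133 in Robo1 and 0.0625 in Sema5a. With the length correction they turned to -0.014 in Robo2 and -0.0723 in Unc5c, and with the replicate block added to -0.0158 and -0.0697. Ephb4 turned to -3.085e-04 with RLE factors, -3.336e-04 with DESeq2 and -0.00815 without a filter. Leaving out single libraries, the log2 fold change ranged from -0.0183 to 0.0257 in Ephb4, -0.0715 to 0.0423 in Ntn1, -0.218 to 0.139 in Ntn3, -0.273 to 0.0155 in Plxna3 and -0.376 to 0.350 in Sema6b. Depth limited the genes of few counts: Sema3f, Sema4f, Unc5d and the 11 genes under the filter.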
